A study of Mus musculus with 93 samples.

Results

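The genes described here encode the proteins of the cytosolic ribosome of the mouse, followed through macrophage development. They were chosen by name alone: every protein-coding gene whose symbol is Rpl or Rps followed by a digit, together with Rpsa, Rplp0, Rplp1 and Rplp2, without symbols marked -ps as pseudogenes and without the Rps6k kinase genes. The rule found 84 of the 14181 genes with a level, and these members held 278 of the 37521 transcripts. By their names 33 belong to the small subunit and 50 to the large subunit, while the remaining member, Rps19bp1, is named for binding Rps19 and is not a ribosomal protein. Rpl7l1, a relative of Rpl7 that works in building the large subunit, and Rps27rt, an intronless copy of Rps27, also met the rule.

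The libraries were made with SMART-Seq2, which copies full-length polyadenylated RNA from few cells. There were 93 libraries in 46 groups, each group being 1 kind of cell from 1 tissue at 1 age: 6 EMP libraries (erythro-myeloid progenitors, the yolk-sac-derived cells from which resident macrophages arise), 13 pMac libraries (macrophage precursors) and 74 Mac libraries (macrophages). EMP came from yolk sac at E9 and E10.25 and from liver at E10.25. pMac came from brain, the caudal part and yolk sac at E9.5 and, with 1 library each, from yolk sac, liver, limbs and brain at E10.25. Early Mac, the 20 macrophage libraries of E10.25 and E10.5, came from yolk sac, brain, liver and limbs. Later Mac came from brain, liver and limbs at E12.5 and from brain, kidney, liver, lung and skin at E14.5, E18.5, P2, P8 and P21. The labels used here give cell type, tissue and age, and name no strain, allele or treatment. The series calls its replicates both technical and biological without saying which is which, so a p-value here reflects only how libraries scatter, which may be technical. No pair of libraries held identical values.

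A ribosome holds 1 copy of nearly every member, so cells make these proteins in matched amounts, and excess protein is degraded. In mammals the mRNAs of most members begin with a run of C and T at the very 5′ end, the TOP motif, through which the TOR kinase and the binding protein Larp1 control their translation as a group. Ribosomal RNA synthesis and the assembly factors that work in the nucleolus set the output of finished subunits. Myeloid progenitors divide rapidly and have a high demand for ribosomes, and loss of 1 copy of several members causes Diamond-Blackfan anaemia, a failure of red cell production.

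The promoter table from RefSeq (GRCm38.p6) held 64 of the 84 members. The stretches around the annotated start are shown because the TOP motif lies there, for the members that later passed a test or serve as reference genes. Each runs from 15 bases before the start to 15 bases from it onward, in the direction of transcription, with the longest run of C and T that opens with C and has at least 5 bases in capitals.
Rpl38 (chr11:114668565-114668594, plus strand): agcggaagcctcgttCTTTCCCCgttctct
Rps27l (chr9:66946071-66946100, plus strand): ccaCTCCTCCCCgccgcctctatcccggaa
Rps27rt (chr9:114982725-114982754, minus strand): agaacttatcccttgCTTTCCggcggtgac
Rps28 (chr17:33824548-33824577, minus strand): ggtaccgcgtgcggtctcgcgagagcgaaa
Rps25 (chr9:44407699-44407728, plus strand): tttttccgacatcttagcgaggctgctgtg
Rpl27 (chr11:101442230-101442259, plus strand): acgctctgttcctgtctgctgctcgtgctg
Rps2 (chr17:24720048-24720077, plus strand): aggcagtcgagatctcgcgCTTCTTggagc
Rps16 (chr7:28350674-28350703, plus strand): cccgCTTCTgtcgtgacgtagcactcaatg
Rps18 (chr17:33955651-33955680, minus strand): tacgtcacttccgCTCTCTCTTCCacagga
Rpl13a (chr7:45128731-45128760, minus strand): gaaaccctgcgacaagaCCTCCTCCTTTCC
Rplp0 (chr5:115559452-115559481, plus strand): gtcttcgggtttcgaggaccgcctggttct
Such a run lay in this 30-base window of 41 of the 64 members, counting genes, and in 43 of their 75 entries (57.3%), against 36.4% of all 32851 entries in the table. In Rpl38 and Rps27rt the run begins exactly at the annotated start, and in Rpl13a it begins at the third base. Annotated starts can lie several bases from the true one, so a missing run says only that these letters are not in this window. Over the whole 300-base promoter, 250 bases before to 50 after the start and on both strands, the motif CCGGAAG lay in 36% of the members' entries and in 8.86% of all entries. GGGCGG lay in 61.3% and 35.7%, AAGATGGC in 10.7% and 2.75%, and TATAAA in 9.33% and 13.6%. In the 75 entries of the mitochondrial ribosomal protein genes CCGGAAG lay in 34.7%, the run of C and T in 44%, GGGCGG in 52%, AAGATGGC in 16% and TATAAA in 6.67%. Differences between these shares were not tested.

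Levels are on the log2 scale of the deposited values, summed over a gene's transcripts above a floor of 5.37, which stands for background. In 82 of the 84 members the level was above the floor in all 93 libraries. The exceptions were Rpl22l1, above it in 92 libraries, and Rpl39l, above it in 37. The median member level of a library ran from 9.73 to 13.39, with a median of 11.27 over all libraries. Sequencing depth is unknown because the values are not counts. Between 14438 and 25195 transcripts were detected above the floor, and 9 postnatal libraries (4 liver, 3 lung and 2 kidney) had fewer than 18000. That limit is a chosen cut: the highest of the 9 had 17404, and the next library had 18399. A second split, into 2 sets by how background values deviate together, gave sets of 60 and 33: all 13 pMac but only 1 of 6 EMP were in the smaller set. The median correlation of these deviations was 0.67 within the smaller set, 0.02 within the larger and -0.05 between them. Only the smaller set thus deviates together, and the larger set holds the remaining libraries. Csf1r, the macrophage growth factor receptor, had a median level of 10.07 in EMP, 13.02 in pMac and 15.87 in postnatal Mac, but only 10.82 to 13.52 in the 4 postnatal lung libraries. The lowest of the 6 Mac libraries of E12.5 was at 10.40, within the EMP range of 9.17 to 10.68. Kit, a progenitor marker, was at 11.22 in EMP. It was above the floor in 11 of 13 pMac, 6 of 20 early Mac and 4 of 6 Mac libraries of E12.5. From E14.5 to P21 it was above the floor in 6 of 9 liver Mac libraries, reaching 10.27.

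As a share of all linear signal, the members took 4.56% in the median EMP library (range 3.89% to 5.90%) and 4.01% in the median pMac library (3.03% to 5.998%). The share was 3.66% in early Mac (2.01% to 5.98%), 2.53% at E12.5 (1.56% to 3.77%) and 1.91% at E14.5 and E18.5 (0.96% to 3.79%). These ranges overlap, and no test was run on a sum over members. In postnatal Mac the median was 2.24% over a wide range of 0.83% to 5.01%, and it was 2.18% in the 20 postnatal libraries without few detected transcripts. Share and level pointed opposite ways from EMP to pMac. The median member level was 11.15 in the median EMP library and 11.83 in the median pMac library.

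**Figure D1:**
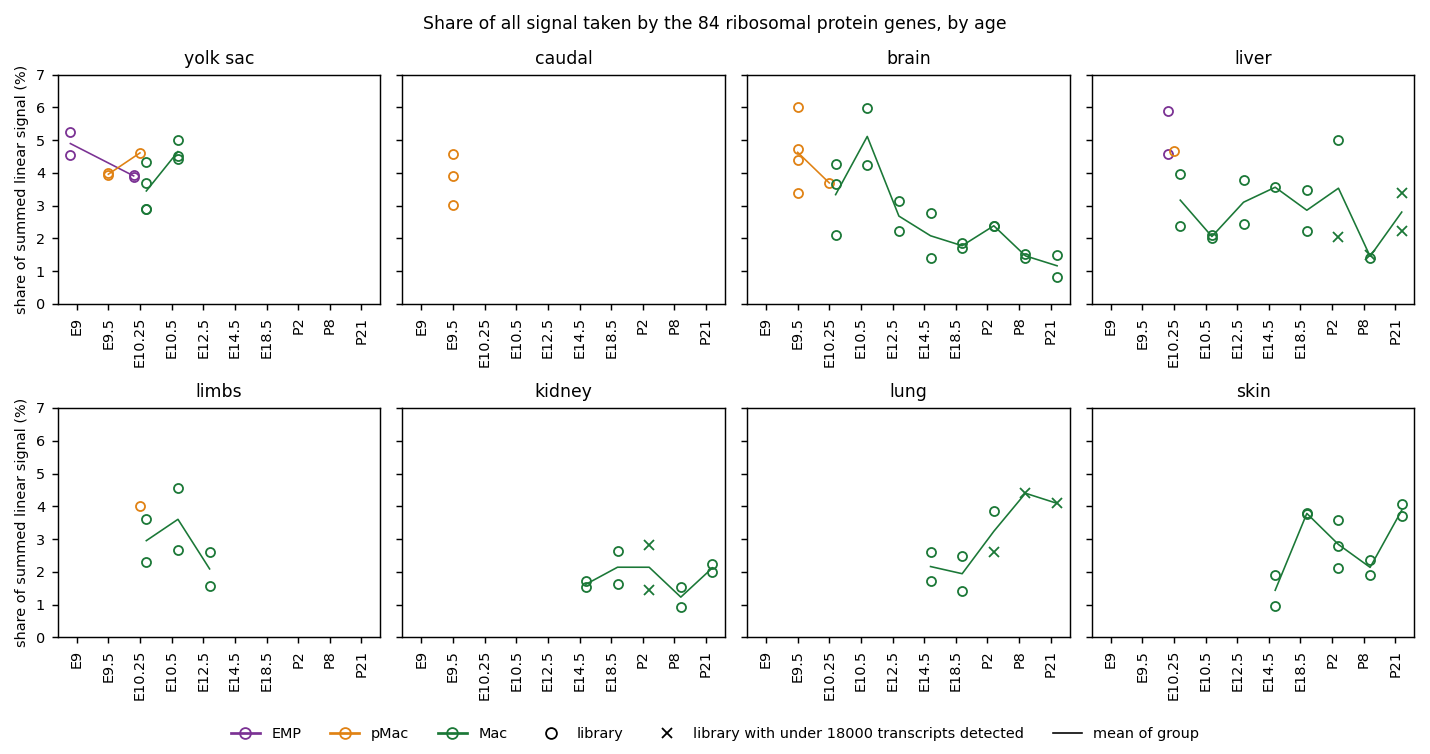
Share of all linear signal (%) taken by the 84 members, by age, in 1 panel per tissue; symbols are libraries, lines join group means, and crosses are libraries with under 18000 detected transcripts. Brain macrophages go from 4.25% and 5.98% at E10.5 to 0.83% and 1.501% at P21, while liver macrophages run from 1.41% to 5.01% after birth.

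In brain macrophages the share was 3.33% ± 1.12 (SD, n = 3) at E10.25 and 4.25% and 5.98% in the 2 libraries of E10.5. It was 2.21% and 3.15% at E12.5, 1.40% and 2.76% at E14.5, and 1.71% and 1.85% at E18.5. After birth it was 2.38% and 2.39% at P2, 1.41% and 1.52% at P8, and 0.83% and 1.501% at P21. All 6 postnatal brain libraries lay below 4 of the 5 early ones, the exception being the early library at 2.09%, which the P2 libraries exceeded. In liver the share ranged from 2.01% to 3.96% in 4 early libraries and from 1.41% to 5.01% in 6 postnatal ones, so the ages overlapped. In lung it was 1.42% to 2.59% in the 4 embryonic libraries and 2.62% to 4.40% in the 4 postnatal ones, of which 3 had few detected transcripts.

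Across the 46 groups a member's group means had a median SD of 0.69 log2 units, against 1.1 for the 2256 other genes with a median level of at least 10. The spread between libraries of 1 group was 0.63 for the median member and 1.002 for those genes. After each library's median member was subtracted, both fell, to 0.41 between groups and 0.39 within groups. In 40 of the 84 members the SD of group means was then below the SD within groups. Group means average up to 4 libraries, while the SD within groups is that of single libraries. The count therefore does not show that groups vary less than replicates. 

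**Figure D2:**
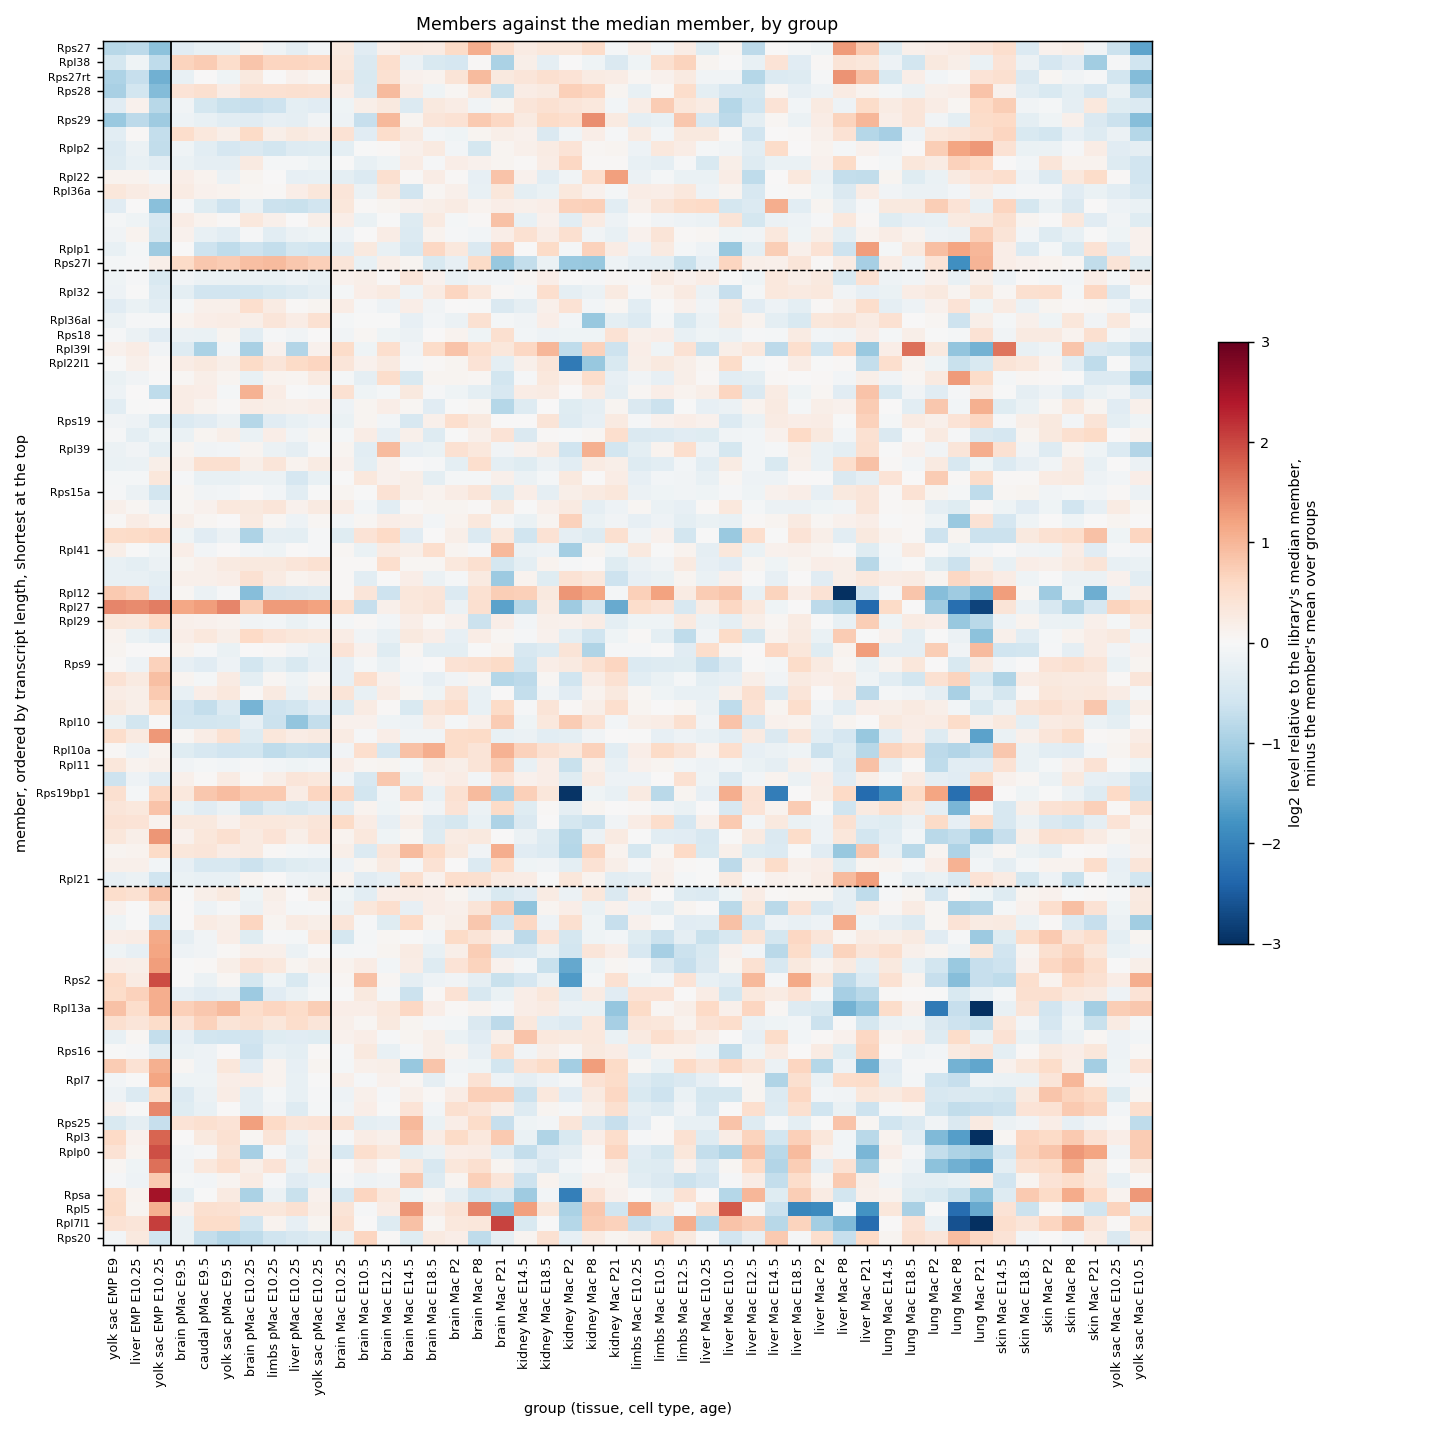
Mean log2 level of each member relative to the library's median member, after subtraction of the member's mean over the 46 groups; rows are ordered by transcript length, members named in the text are labelled, dashed lines mark 500 and 900 bases, and columns run through EMP, pMac and Mac. Rpl27 is high in every EMP and pMac group, and yolk sac EMP of E10.25 is high in long members and low in short ones.

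The step from EMP to pMac compared the progenitor with the precursor of macrophages. A gene was taken to have risen or fallen where limma's Benjamini-Hochberg adjusted p, over all genes tested, was under 0.05 and the difference at least 1 log2 unit. By this rule 5 of 84 members (5.95%) rose, beside 3.67% of all 11606 genes tested, and none fell, beside 1.9% of all genes. The median member differed by 0.49 log2 units and the median gene by 0.13. The members' share of all signal was nevertheless lower in the median pMac library (4.01%) than in the median EMP library (4.56%).

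Rps28, a small-subunit protein, had levels from 6.83 to 8.95 (median 7.45) in the 6 EMP libraries and from 9.01 to 10.05 (median 9.44) in the 13 pMac libraries, without overlap. It rose by 1.79 ± 0.49 (SE; limma, adjusted p = 0.0170). Rpl38, a large-subunit protein that mouse mutants link to the translation of Hox mRNAs, went from a median of 7.27 (6.87 to 8.83) to 9.10 (8.61 to 9.92) and rose by 1.63 ± 0.49 (limma, adjusted p = 0.0349). Only the highest EMP library reached into the pMac range. Rps25, a small-subunit protein needed for initiation on certain viral internal entry sites, had levels of 10.29 to 11.92 in EMP and 11.36 to 13.62 in pMac, with only the highest EMP library inside the pMac range, and rose by 1.52 ± 0.42 (limma, adjusted p = 0.0182). Rps27l, the p53-responsive relative of Rps27, rose by 1.41 ± 0.39 (limma, adjusted p = 0.0209), and the intronless copy Rps27rt by 1.32 ± 0.40 (limma, adjusted p = 0.0387).

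Length moved with this result. Of the 16 members with a main transcript under 500 bases, 4 rose, with a median difference of 0.79, while 1 of the 25 members of 900 bases or more rose, with a median of 0.26. The main transcript is the one with the highest mean level. Other genes whose main transcript is protein-coding, called other coding genes here, differed in the same order. Their medians were 0.81 under 500 bases, 0.36 from 500 up to 900 bases and 0.10 above. Members were not filtered in this way: the main transcripts of Rpl12, Rpl23, Rpl41 and Rps19 are not protein-coding. The gap between the medians of short and long members was -3.51 in the mean of the 2 yolk sac EMP libraries of E10.25, the widest of all groups, and -2.02 to -2.19 in the means of the pMac groups of E9.5. Without these 2 EMP libraries no member passed, with Rps28 at 1.47 (limma, adjusted p = 0.159). The cell types also divide along the 2 library sets, and with the set as a covariate no member passed and Rps28 was at 1.74 (limma, adjusted p = 0.196), so the set and the step cannot be told apart in full. The part of length and of these libraries in the result was not tested. With each library scaled to its median member, 1 member rose and 3 fell. Without single libraries the count ranged from 2 to 9: it was 2 without replicate 1 or 2 of yolk sac EMP E10.25 or replicate 1 of yolk sac EMP E9, 3 without replicate 2 of yolk sac EMP E9, replicate 2 of liver EMP E10.25 or the liver pMac library, and 9 without replicate 3 of liver EMP E10.25.

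Of the partners of the members in translation, no gene of 30 initiation factors or 6 elongation factors passed the test, with medians of 0.41 and 0.35. Of 41 ribosome biogenesis genes 1 rose (median 0.41), and of 79 mitochondrial ribosomal protein genes 1 rose (median 0.26). In the same comparison 13 of 13 macrophage markers rose and 3 of 5 progenitor markers fell, and 1 of 13 TOR pathway genes and TOP regulators fell. Of the endothelial markers 3 of 5 tested fell (median -1.83), as did 1 of 3 megakaryocyte markers and the 1 mast cell marker tested. The part of these markers in the members' differences was not tested.

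From pMac to early Mac, the first macrophages in the tissues, 3 of 84 members (3.57%) fell, beside 7.84% of all genes, and none rose, beside 7.91% of all genes. The median member differed by -0.43 and the median gene by -0.06, and 70 of 84 members were below 0. Above 0 were 14 members (16.7%), beside 46.6% of all genes. Rpl27, a large-subunit protein mutated in some families with Diamond-Blackfan anaemia, fell by 1.21 ± 0.27 (SE; limma, adjusted p = 0.00120). Its levels were 11.18 to 13.15 (median 11.63) in the 13 pMac libraries and 9.40 to 12.65 (median 10.61) in the 20 early Mac libraries. Rps27l fell by 1.06 ± 0.26 (limma, adjusted p = 0.00303) and Rpl38 by 1.02 ± 0.32 (limma, adjusted p = 0.0208), from medians of 11.20 and 9.10 in pMac to 10.13 and 8.03. Both also rose from EMP to pMac, but the 2 steps share the pMac libraries.

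**Figure D3:**
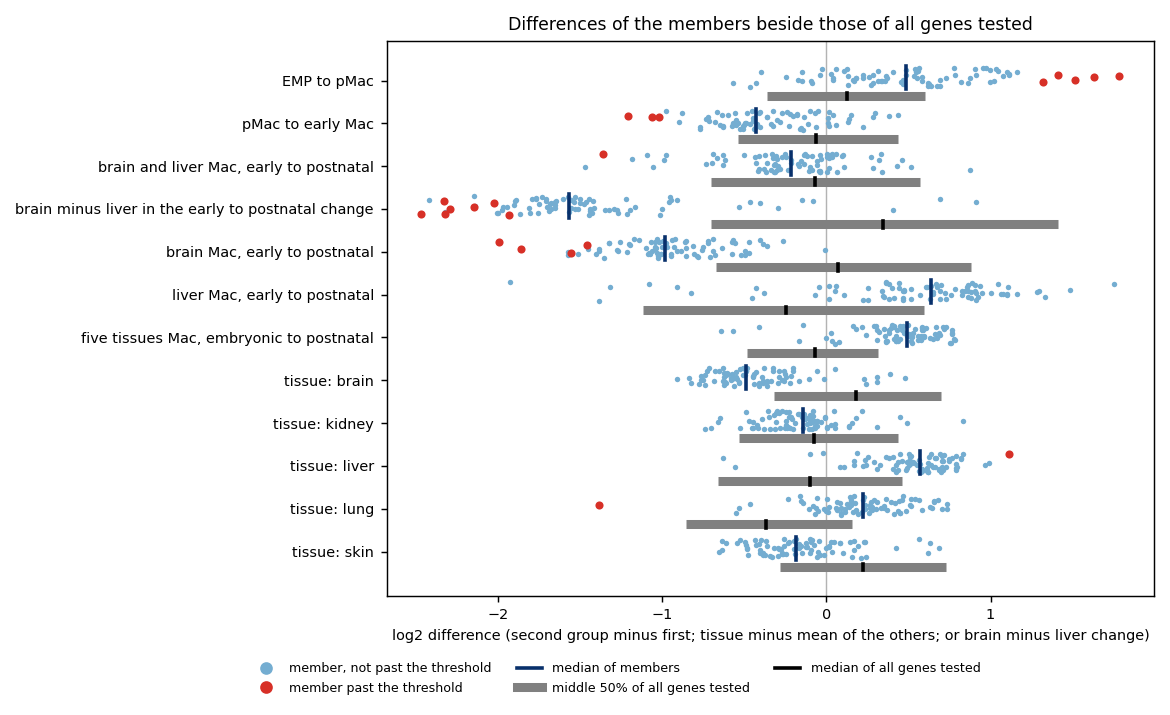
Log2 difference of every member tested in each comparison (points; red where the test was passed), with the median of the members (blue line) beside the median and the middle 50% of all genes tested (black line, grey bar). The members lie to the right of the other genes from EMP to pMac and in liver Mac with age, and to the left in brain Mac with age.

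Assembly factors of the ribosome were also read at this step. Of 41 ribosome biogenesis genes, nucleolar factors that process and fold ribosomal RNA, 22 fell and none rose, with a median of -1.11. Rrs1 fell by 2.41 ± 0.47, Ddx21 by 1.92 ± 0.26 and Npm1 (nucleophosmin) by 1.87 ± 0.30, the largest limma adjusted p being 0.000200. Rrn3, which recruits RNA polymerase I to ribosomal DNA, fell by 2.17 ± 0.44. Of 30 initiation factors 8 fell (median -0.76), among them Eif4e by 1.69 ± 0.31, and of 79 mitochondrial ribosomal protein genes 9 fell (median -0.53). Of 13 TOR pathway genes and TOP regulators 4 rose and none fell: Rps6kb2 by 1.70, Tsc1 by 1.58, Tsc2 by 1.08 and Rptor by 1.08. Whether these lists differ from the members was not tested.

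Red cell transcripts moved with this step: 9 of 11 erythroid markers rose, and their summed share of signal was 0.00138% to 0.0173% in pMac and 0.0135% to 1.53% in early Mac. Their part in the members' differences was not tested. With the library set as a covariate 1 member fell, Rpl27 at -1.13 (limma, adjusted p = 0.0240), and none fell within E10.25 alone, where Rpl27 differed by -1.04 (limma, adjusted p = 0.245). The count was 1 without replicate 1 of brain Mac E10.25, replicate 4 of brain pMac E9.5 or replicate 1 of limbs Mac E10.25, and 5 without replicate 3 of brain Mac E10.25.

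Brain and liver were the tissues sampled from E10.25 to P21, and their macrophages were compared between the early ages and P2 to P21. Averaged over both tissues, 1 of 83 members tested fell, beside 5.21% of all 10967 genes tested, and none rose, beside 6.46%. By unadjusted limma p under 0.05 there were 8 members (9.64%), beside 25.6% of all genes. The median member differed by -0.21 and the median gene by -0.07. The 1 was again Rpl27, which fell by 1.36 ± 0.40 (SE; limma, adjusted p = 0.0261). Rpl13a, a large-subunit protein that also silences inflammatory mRNAs in myeloid cells, differed by -1.05 ± 0.37 (limma, adjusted p = 0.0619). Rpl5, which carries the 5S ribosomal RNA and binds Mdm2, differed by -1.47 ± 0.64 (limma, adjusted p = 0.137).

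Around the members, 13 of 40 ribosome biogenesis genes fell (median -1.36) and 14 of 18 cell cycle genes fell (median -1.89), while no elongation factor passed. Quantile normalization gave 17 members that fell, and scaling to the median of the other genes gave 4. Without the libraries with few detected transcripts none passed, with Rpl27 at -0.95 (limma, adjusted p = 0.180). Single libraries moved the count between 0 and 5: it was 0 without replicate 1 of brain Mac E10.5, replicate 2 of brain Mac P2, replicate 2 of liver Mac E10.25 or replicate 1 of liver Mac E10.5. It was 5 without replicate 1 of liver Mac P21, and 2 without replicate 1 or 2 of brain Mac P21, replicate 2 of liver Mac P2, replicate 2 of liver Mac P21 or replicate 2 of liver Mac P8.

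The 2 tissues were then read apart. In brain alone all 83 members were lower after birth than at the early ages, while 52.8% of all genes were higher. The lower levels were already present before birth. Averaged over libraries, the median member level in brain was 11.56 early, 10.39 at E12.5, 10.67 at E14.5 and E18.5 and 10.56 after birth. The members were lower by a median of 0.98 log2 units while the median gene differed by 0.07. In the test 4 of 83 members (4.82%) fell, beside 2.06% of all genes. None rose in brain, beside 3.88% of all genes. In brain 39 of 83 members (47.0%) had an unadjusted limma p under 0.05, beside 20.2% of all genes. In liver alone 72 of 83 members (86.7%) were higher, beside 42.1% of all genes. Their median difference was 0.64 against -0.25 for all genes. None passed there, beside 4.28% of all genes that rose and 4.17% that fell. An unadjusted limma p under 0.05 was found for 17 of 83 members (20.5%) and for 23.3% of all genes.

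Among those that fell in brain, Rps2, a protein at the mRNA entry of the small subunit, had levels of 13.44, 14.33, 15.005, 15.64 and 15.33 in the 5 early brain libraries and of 13.51, 13.36, 12.93, 12.87, 13.50 and 11.88 in the 6 postnatal ones. Only the lowest early library lay within the postnatal range. The difference was -1.86 ± 0.44 (SE; limma, adjusted p = 0.0109). Rps20, another small-subunit protein, ran from 11.12 to 13.68 (median 12.53) early and from 10.03 to 11.85 (median 11.02) after birth. It fell by 1.55 ± 0.45 (limma, adjusted p = 0.0383). Its call was lost in 11 of 32 fits that each left out a library, with differences from -1.30 without replicate 1 of brain Mac E10.5 to -1.80 without replicate 2 of that group. The others were the fits without replicate 2 or 3 of brain Mac E10.25, either E18.5, P2 or P21 brain library, or replicate 3 of brain Mac P8. It was also lost in 4 of 11 alternatives, and the call of Rps2 was lost in 3 of 11 and without replicate 1 of brain Mac E10.5 (-1.78; limma, adjusted p = 0.0729). Both calls were lost within either library set and scaled to the median member, where Rps20 differed by -0.51 and Rps2 by -0.82.

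In liver the early and postnatal levels of both genes overlapped. Rps2 had levels of 13.28, 14.95, 13.30 and 13.09 in the 4 early liver libraries and of 13.85, 15.79, 13.44, 12.84, 14.09 and 14.73 in the 6 postnatal ones, which overlap. Rps20 ran from 10.66 to 12.59 early and from 10.97 to 14.16 after birth. The highest liver differences among members were those of Rps29, at 1.75 ± 0.65 (limma, adjusted p = 0.0898), and Rplp1, at 1.48 ± 0.48 (limma, adjusted p = 0.0556). The lowest was that of Rpl5, at -1.93 ± 0.93 (limma, adjusted p = 0.207).

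**Figure D4:**
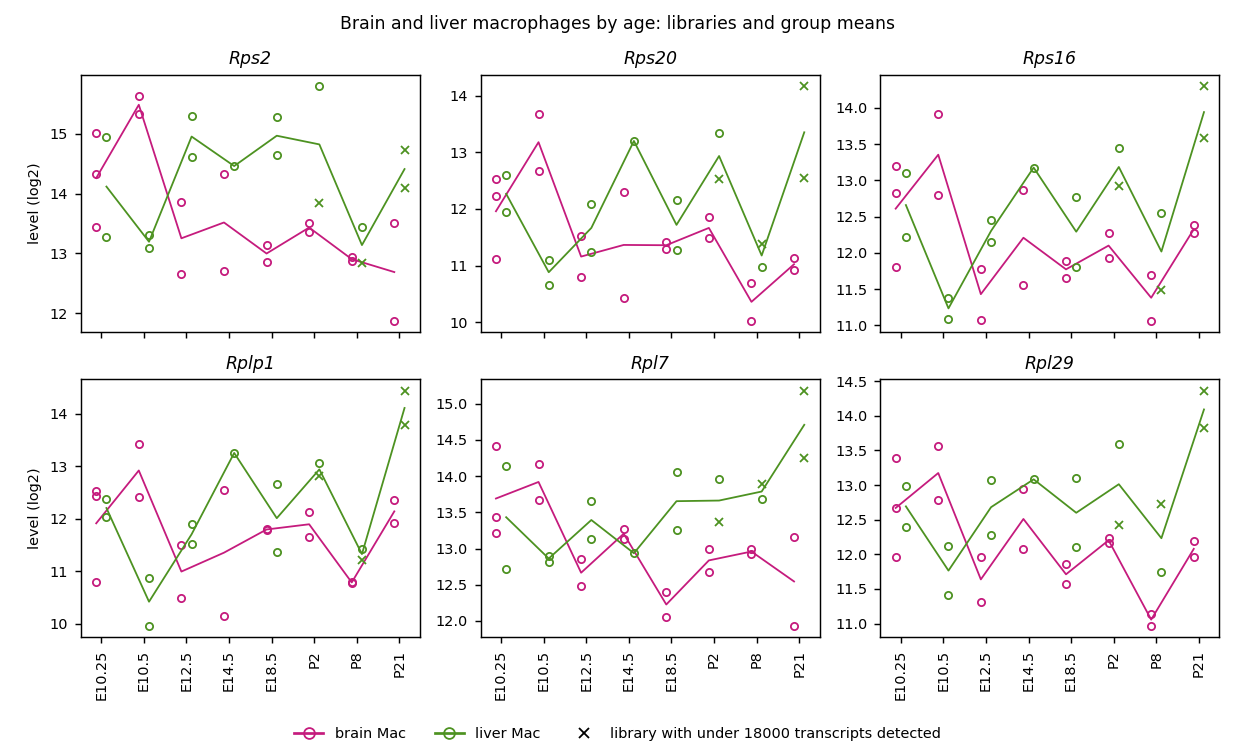
Log2 levels of 6 members in brain (pink) and liver (green) macrophages by age; symbols are libraries, crosses are libraries with under 18000 detected transcripts, and lines join group means. In brain Rpl7 lies at 13.22 to 14.41 early and at 11.93 to 13.16 after birth, and in liver its 2 ages overlap.

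The difference between the 2 courses was tested directly. The change with age was lower in brain than in liver in 7 of 83 members (8.43%), beside 1.77% of all genes, and higher in none, beside 2.5%. The median member differed by -1.57 against 0.35 for the median gene. Among those that passed were Rps20 (-2.47 ± 0.65, limma adjusted p = 0.0286), Rps2 (-2.33 ± 0.64, limma adjusted p = 0.0347), the stalk protein Rplp1 (-2.29 ± 0.67), Rps16 (-2.15 ± 0.59), Rpl29 (-2.02 ± 0.57) and Rpl7 (-1.93 ± 0.53). Rps16 reaches the peptidyl site with its tail, and Rpl29 and Rpl7 are large-subunit proteins. Rpl7 ran from 13.22 to 14.41 in early and from 11.93 to 13.16 in postnatal brain, without overlap, and from 12.72 to 14.15 and 13.37 to 15.17 in liver. Noncoding isoforms held 46.7% of the Rps16 signal in the median library (0.734% to 74.9%). Rpl27 differed by -0.08 ± 0.80 and Rpl13a by -0.30 ± 0.74 between the tissues. For this difference 50 of 83 members (60.2%) had an unadjusted limma p under 0.05, beside 18.6% of all genes.

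Several measures moved with this difference. Among other coding genes under 500 bases the median was -1.18, beside -1.60 for the 16 members of that length. At 900 bases or more it was 0.43 for other coding genes and -1.54 for the 25 members. The part of length in the result was not tested. Hepatocyte markers rose in liver (7 of 8, median 4.65), with a share of signal of 0.0141% to 0.178% early and 0.211% to 3.21% after birth. In brain it was 0.00391% to 0.0171% and then 0.0233% to 0.157%. Erythroid markers took 0.115% to 1.24% in early and 0.672% to 4.04% in postnatal liver. In bulk libraries fewer macrophages and less of these RNAs per macrophage cannot be told apart. Their part in the result was not tested.

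All 4 of the few-detected brain or liver libraries are postnatal liver, and without them 3 members passed, with a median member difference of -1.72. No member passed after quantile normalization (median -1.17) or within either library set (medians -0.996 and -2.32). Scaled to the median member, 1 member was higher and none lower. The count fell to 0 without replicate 1 of brain Mac E10.5, replicate 1 of liver Mac E10.25, or replicate 1 or 2 of liver Mac E10.5. It was 1 to 4 without replicates 2 and 3 of brain Mac E10.25, replicate 2 of brain Mac E10.5, each brain Mac P2 and P8 library, replicate 2 of brain Mac P21, replicate 2 of liver Mac P2, or replicate 1 of liver Mac P8 or P21. It rose to 11 without replicate 1 of brain Mac E10.25.

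In the 5 tissues sampled from E14.5 to P21 (brain, kidney, liver, lung and skin, 48 libraries), age was tested with tissue held constant. No member passed in limma's test, beside 1.03% of all 11797 genes tested that rose and 1.1% that fell. An unadjusted limma p under 0.05 was found for 40 of 83 members (48.2%) and for 17.2% of all genes. The median member was higher after birth by 0.49 while the median gene differed by -0.07. The closest were Rpl7 at 0.76 ± 0.20 (limma, adjusted p = 0.0280) and Rps9 at 0.71 ± 0.20 (limma, adjusted p = 0.0394), both under the required 1 log2 unit. Scaled to the median member, 2 members were lower. The median was 0.34 without the few-detected libraries. Of 41 ribosome biogenesis genes 4 fell (median -0.63).

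Each tissue was also compared with the mean of the other 4. The median member was lowest in brain (-0.49, median gene 0.18) and highest in liver (0.57, median gene -0.10), with lung at 0.22 (median gene -0.37), kidney at -0.14 (-0.07) and skin at -0.18 (0.22). Other coding genes under 500 bases stood at -0.42 in brain and 0.54 in liver, and the 16 members of that length at -0.53 and 0.54. At 900 bases or more other coding genes stood at 0.23 and -0.15, and the 25 members at -0.39 and 0.58. A single member was higher in liver, beside 4.92% of all genes, and none lower, beside 3.88%. It was Rpl21, a large-subunit protein, at 1.11 ± 0.27 (limma, adjusted p = 0.00373). Its levels were 11.76 to 14.60 (median 12.72) in 9 liver libraries and 11.26 to 12.49 (median 11.79) in 10 brain libraries. Without replicate 1 of liver Mac P21 the difference was 0.97, under the required size. In the same contrast 8 of 8 hepatocyte markers (median 4.42) and 9 of 10 erythroid markers (median 4.74) were higher in liver. Their part in the Rpl21 result was not tested. A single member was lower in lung, beside 1.92% of all genes, and none higher, beside 0.924%. It was Rpl3, which reaches toward the peptidyl transferase centre, at -1.38 ± 0.38 (limma, adjusted p = 0.0366).

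Rpl3 rested on few lung libraries. Its level was 12.11 to 13.36 in the 4 embryonic lung libraries and 7.62 in the only P21 library, the lowest of all 93. Leaving out that library gave -0.65, and the call was also lost without replicate 1 or 2 of lung Mac P2 (-1.38 and -1.47) or the P8 library (-1.53). Without the few-detected libraries, of which 3 are postnatal lung, Rpl3 stood at -0.73 (limma, adjusted p = 0.709). In the lung contrast 6 of 13 macrophage markers were lower (median -1.80), and their part in the Rpl3 result was not tested. Over Mac of all tissues, noncoding isoforms held a median of 29.0% of the Rpl3 signal at E14.5 and E18.5 (7.44% to 88.7%). After birth they held 9.21% (1.88% to 98.7%). Their part was not tested either. No member passed limma's test in brain (5.82% of all genes higher, 2.77% lower), kidney (2.01% and 1.04%) or skin (4.98% and 2.97%), with 25, 3 and 2 of 83 members at an unadjusted p under 0.05, beside 21.7%, 18.2% and 22.0% of all genes. Quantile normalization gave 2 members higher and 4 lower over the 5 tissues, in place of 1 and 1.

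Among members with a median level at least 1 above the floor, Rpl27 varied most over the 46 group means (SD 1.18), followed by Rpl3 (1.12), Rps19bp1 (1.08), Rpl13a (1.03) and Rps27l (0.95). Relative to each library's median member, Rpl27 stood at a median of 0.15 in EMP (-0.35 to 0.74) and 0.01 in pMac (-0.65 to 0.56). It was at -0.76 in early Mac (-1.96 to 0.14), -1.17 at E12.5, -1.06 at E14.5 and E18.5 and -1.90 after birth (-4.15 to -0.79). No postnatal library reached the lowest pMac value. Rpl27 (ENSMUSG00000063316, chr11:101442298-101445529, plus strand) was carried by 1 main coding transcript of 732 bases, whose mean level was 11.34 in EMP, 11.57 in pMac and 10.26 in early Mac. Noncoding isoforms held up to 80.8% of its signal in a postnatal library and none in the median library.

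Rpl13a, on the same relative scale, went from medians of 0.52 in EMP and 0.42 in pMac to 0.06 in early Mac and -0.90 after birth, where it ranged from -4.87 to 0.05. The lowest value was in the lung library of P21. Rps27l peaked in pMac: its relative median was -1.34 in EMP, -0.55 in pMac and -1.42 in early Mac, and the ranges of EMP (-1.51 to -1.15) and pMac (-1.29 to -0.42) overlapped only at their ends. Rps19bp1 ranged from -5.98 to 0.15 after birth, and its lowest level over all libraries was 5.63, near the floor.

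**Figure D5:**
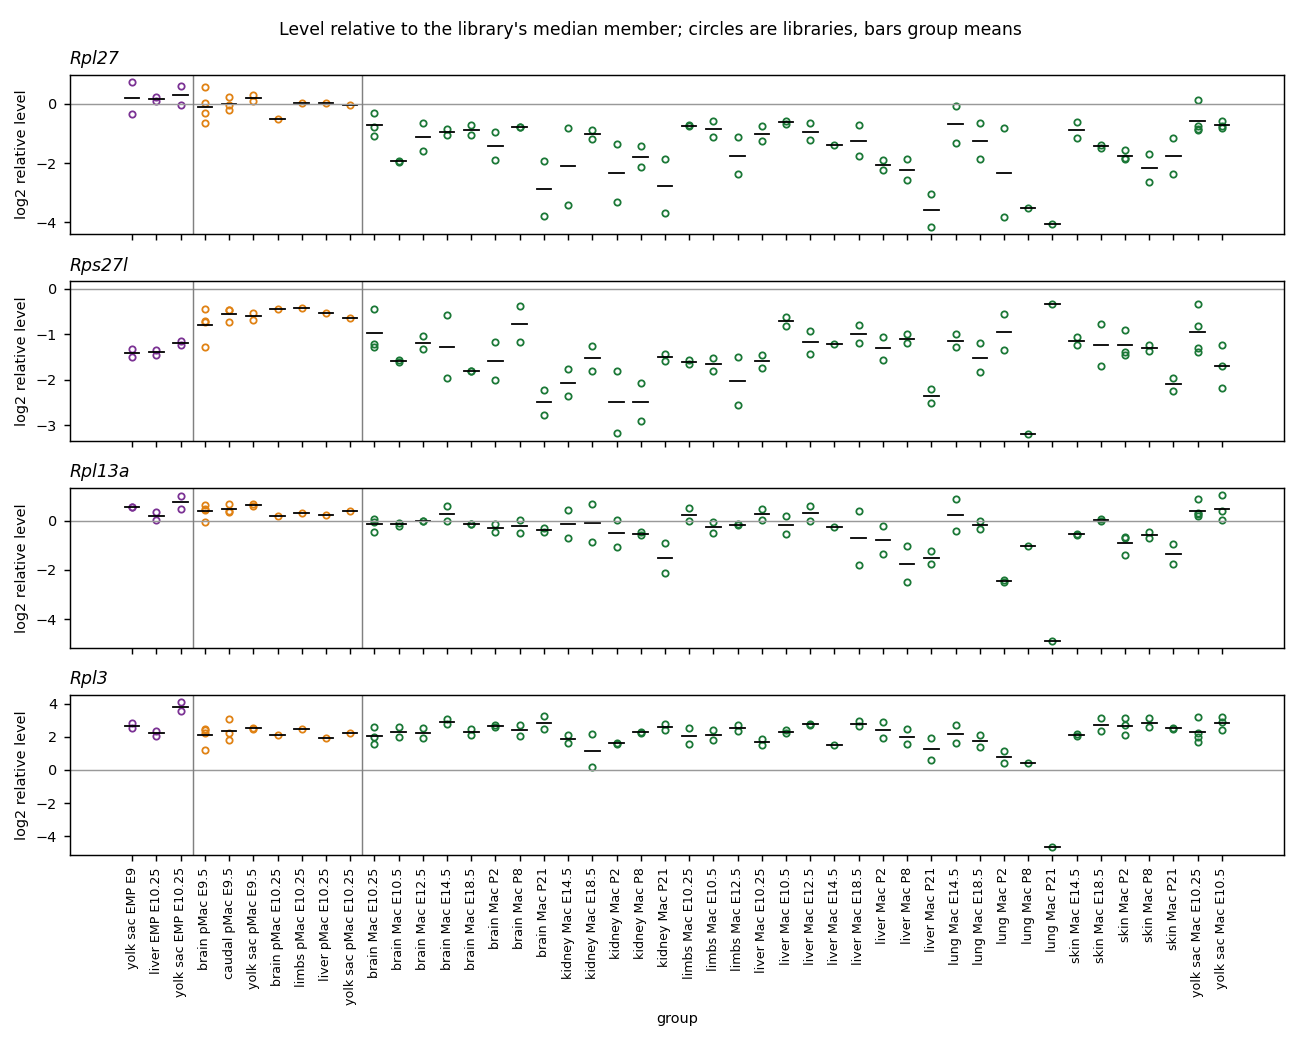
Log2 level of Rpl27, Rps27l, Rpl13a and Rpl3 relative to the library's median member, by group; circles are libraries (purple EMP, orange pMac, green Mac) and bars are group means. Rpl27 lies near 0 in EMP and pMac and at a median of -1.90 in postnatal Mac, and Rpl3 drops to -4.69 in the lung library of P21.

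At the other end, Rpl10a (SD of group means 0.49), Rpl41 (0.54), Rps15a (0.57), Rpl11 (0.57) and Rpl10 (0.58) varied least on the deposited scale. Rpl10a ran from 10.53 to 15.43, and relative to the median member it was at 1.15 in EMP, 0.73 in pMac, 1.49 in early Mac and 1.96 at E14.5 and E18.5. On that relative scale its SD of group means was 0.55, above the 0.41 of the median member. Noncoding isoforms held a median of 42.3% of its signal in EMP, 32.0% in pMac, 50.5% in early Mac and 65.6% at E14.5 and E18.5. Their part in its levels was not tested. Rpl41, the shortest ribosomal protein known in mammals, stayed within -1.67 and 1.34 of the median member in all libraries. Rpl11 binds the 5S ribosomal RNA together with Rpl5.

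Genes with a second, related copy were read pair by pair, with levels in log2 and no comparison of levels between genes. Rpl39l, the copy of Rpl39 known from testis, was at the floor in the median library and reached at most 7.75, while Rpl39 was 7.28 in the median library. Rpl22l1, the copy whose use rises when Rpl22 is lost, had a median of 8.90 in EMP, 9.81 in pMac and 9.20 in early Mac, and Rpl22 had 10.04, 10.61 and 10.18. Rpl36al and Rpl36a had medians of 10.19 and 10.11 in EMP and 11.08 and 10.71 in pMac. Rps27l and its partner Rps27 had medians in pMac (11.20 and 7.70) above those in EMP (9.86 and 6.51); Rps27l passed the test and Rps27 differed by 1.02 ± 0.43 (limma, adjusted p = 0.188). Rpl7l1 followed the other members least, with r = 0.13 over the 46 group means against the median of the rest, beside r = 0.94 for Rps18.

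Several members serve as reference genes in quantitative PCR. After subtraction of the median member, Rps18 varied least of these, with an SD of group means of 0.20, followed by Rpl32 at 0.34. Rps29 had 0.59, Rplp0 had 0.68 and Rpl13a had 0.96, and the spread of Rpl13a within groups was 0.50. On the deposited scale the same 5 genes had SDs of 0.61 to 1.03. None of the 5 passed the test at either stage step, in brain and liver with age, in their difference, or in the 5 tissues with age. In brain Mac with age Rplp0, the stalk base on which Rplp1 and Rplp2 sit, differed by -1.03 ± 0.43 (limma, adjusted p = 0.172), and after scaling to the median member by 0.01.

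Of the 16 members on the list of Diamond-Blackfan genes, 1 rose from EMP to pMac (Rps28), 1 fell from pMac to early Mac and 1 fell in brain and liver with age (Rpl27 in both). Their medians were 0.60, -0.50 and -0.09, beside 0.49, -0.43 and -0.21 for all members.

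The annotation splits members into many transcripts, and 116 of the 278 are not protein-coding: 75 retain an intron, 32 are processed transcripts and 9 are targets of nonsense-mediated decay. They took 7.61% of the members' signal in the median library. The share was 12.2% in Mac of E14.5 and E18.5 and 7.05% after birth. In Rps19, named with Rpl12 after their values were seen, noncoding isoforms held 74.4% of the signal (35.95% to 86.3%), and in Rpl12 they held 80.6% (10.8% to 100%). The division of reads between overlapping isoforms is not stated, so these shares are uncertain.

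Copies elsewhere in the genome add a further limit. Counting only pseudogenes whose symbols begin like a member's, 70 transcripts were in the table, 64 with a median above the floor. Their signal equalled 13.99% to 26.1% of the members' signal over the libraries. Copies under other symbols, such as those beginning with Gm, were not counted, so the full share of copies is unknown. Reads from near-identical copies may be divided between a member and its pseudogenes. The 5 other genes whose group means most resembled the median member over the 46 groups were Gm8226 (r = 0.92), Rpl31-ps8 (0.92), Gm15501 (0.91), Rps13-ps2 (0.91) and Gm10076 (0.91), of 11714 genes compared. Members and copies may carry the same library effects, and the part of such effects in these correlations was not tested. Fau, a small-subunit protein fused to a ubiquitin-like protein, had r = 0.89 and was named after its value was seen.

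Per length, members with short and long transcripts differed. The median level per kilobase was 10.85 for the 16 members under 500 bases, 12.09 for 43 members of 500 up to 900 bases and 11.97 for 25 members of 900 bases or more. The gap between short and long members on the deposited scale ran from -3.87 to -1.39 over the libraries.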

How the data were processed

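The deposited table holds log2-scale normalized values for 37521 Ensembl transcripts in 93 libraries, from 0.836 to 19.01, with no counts. The submitters' processing notes name Bowtie 1.1.1, DESeq2 and mm10 without saying how the authors used them. Transcripts were matched to gene symbols in GENCODE M21, which has 36703 of them, and 818 were left out. The floor, 5.37, is the highest 5th percentile of any library plus 0.5. Transcript values above it were summed on the linear scale per gene and returned to log2. Differences were fitted with limma 3.58.1 (R 4.3.3, trended prior) on genes at least 1 above the floor in enough libraries, with p-values adjusted over all genes tested. Tissue group was a covariate across stages, means per tissue and age were used for brain and liver, and tissue and age were additive in the 5 tissues. The fits were tested on simulated data: of 100 genes changed by 3 log2 units, 93% were recovered from EMP to pMac (11736 genes), 66% in brain Mac with age (11823 genes) and 100% in the 5 tissues with age (12586 genes), and of 100 changed by 1.5 units 33%, 6% and 62%. Unchanged genes that passed numbered 13, 3 and 8. The simulated noise was independent between genes, and only genes with a mean at least 3 above the floor were changed. These rates thus do not cover effects shared by a library or genes with lower means. The members and gene lists were chosen with earlier results of these data known. Members were named by a rule: the largest changes that passed in each comparison, the most and least variable, paralogs, reference genes and stalk proteins. A few members that passed or were listed are not reported here by name. Other scalings, filters, floors, subsets, a replicate block and fits without each library were tried.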

Additional observations from a re-analysis of the deposited data

Results flagged for a closer look

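The brain and liver courses with age differed by a test of the difference itself, brain minus liver, in Rps20 by -2.47, Rps2 by -2.33, Rplp1 by -2.29, Rps16 by -2.15, Rpl29 by -2.02 and Rpl7 by -1.93 log2 units. Within the groups of 4 libraries, a library that stood far from the other 3 was found in 6 of 66 sets of values. Independent sets would give about 1 in 20 by chance, but these sets share libraries, so that rate does not apply. In brain pMac E9.5, replicate 4 stood apart in Rpl7 (15.01), and replicate 1 in Rplp0 (14.3). In yolk sac Mac E10.25, replicate 3 stood apart in the median member level (12.2), Rpl27 (12.3), Rpl36al (11.8) and Rpl39l (6.38).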

How the results depend on the processing

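The number of members that passed, over the fits that left out each library once, ranged from 2 to 9 from EMP to pMac (5 in the full fit), 1 to 5 from pMac to early Mac (3), 0 to 5 in brain and liver with age (1), 0 to 11 in brain minus liver (7), 0 in the 5 tissues with age and 1 to 3 in the tissue contrasts (2). The members' median difference kept its direction in those fits for the first 5 comparisons. From EMP to pMac, scaling to the median of the other genes gave 3 members and moved the median of all genes from 0.13 to -0.20. No member passed with the set as covariate, within the smaller set, at E10.25 alone or without the yolk sac EMP libraries of E10.25. From pMac to early Mac, 1 passed with the set as covariate and 0 within the smaller set, at E10.25 alone or scaled to the median member. In brain and liver with age, 4 passed scaled to the other genes, 17 after quantile normalization, 2 with the highest transcript per gene, and 0 without few-detected libraries, within the larger or the smaller set, or scaled to the median member. In brain minus liver, 0 passed after quantile normalization or within either set, 3 without few-detected libraries or with the set as covariate, and 1 scaled to the median member. In the 5 tissues with age, 2 passed scaled to the median member. In the tissue contrasts 0 passed scaled to the other genes, 6 after quantile normalization, 4 without few-detected libraries, and 1 within the larger set or scaled to the median member. Rplp0 in brain Mac with age was 0.013 scaled to the median member, a reversed sign. That scaling also took the members' median difference from 0.49 to -0.12 from EMP to pMac and from -0.21 to 0.06 in brain and liver with age. The cause was not tested, except that scaling to the median member removes what members share. The scaling to the median member and the subsets at E10.25 and without the yolk sac EMP libraries were chosen after seeing the data. Neither the stages within the larger set nor the 5 tissues within the smaller set could be fitted.

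Libraries with the same replicate number in different groups had a median correlation of 0.003 in their deviations from group means, beside -0.002 for different numbers. Of 86 libraries 42 correlated best with one of their own number, a count without a chance rate beside it. These values pool all groups: they show no general pairing by number but cannot exclude it within some ages or tissues. With the number as a replicate block, 4 members passed from EMP to pMac, 2 from pMac to early Mac, 1 in brain and liver, 6 in brain minus liver, 0 in the 5 tissues with age and 2 in the tissue contrasts. The values are not counts, so the depth behind low values is unknown.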
